A study of Mus musculus with 18 samples.

Results

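The 10 genes described here encode ligands, receptors and Smad proteins of the TGF-β, activin and BMP pathways, and were taken by symbol from the count table of brown adipocytes, in which they were 10 of 54347 listed genes. All 10 had a row of their own and all 10 passed the filter on low counts. By role they comprised the ligands Tgfb1, Tgfb2, Tgfb3, Inhbb and Bmp4, the receptors Tgfbr1, Tgfbr2 and Bmpr1a, and the Smads Smad3 and Smad7. Polyadenylated RNA was sequenced from wt1-SAM cells, an immortalised line of mouse brown preadipocytes that carries the CRISPR activation machinery SAM in every group. Differentiation lasted 7 days. On day 4 the cells received LNA gapmers by reverse transfection, and these are short antisense oligonucleotides with locked bases at their ends that lead to cleavage of the RNA they pair with. The LNA was either ctrlA, which targets no transcript, or LNA1 or LNA2, which target the long non-coding RNA Gm15551, and the cells were left unstimulated or received 1 µM isoproterenol, a β-adrenergic agonist, for 24 h before harvest. These 6 groups held 3 libraries each, numbered 2, 3 and 4. All libraries come from a single cell line, and separate cultures are not stated for the replicates, so that p-values measure the spread between these libraries only.

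In this pathway, dimeric ligands outside the cell bring together type 2 and type 1 serine/threonine kinase receptors, and the activated type 1 receptor phosphorylates receptor Smads that enter the nucleus with Smad4. TGF-β and activin signal mainly through Smad2 and Smad3, and BMPs mainly through Smad1, Smad5 and Smad9, while Smad6 and Smad7 are inhibitory Smads that are themselves transcribed in response to the pathway. In fat cells, TGF-β and Smad3 are known as inhibitors of adipogenesis, whereas BMP4 and its receptor BMPR1A take part in the commitment of precursors to the adipocyte lineage.

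The oligonucleotides are shown because they are the perturbation whose effect on the pathway was compared. Capitals mark bases that pair with Gm15551, and the control is in lower case throughout. The study lists 2 non-targeting oligonucleotides, and the one it names Negative control A was taken to be ctrlA.
LNA1: GATGACTGAGATTAGA
LNA2: AAGTAGCACGGCGTTG
ctrlA: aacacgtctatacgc
LNA1 and LNA2 hold 16 bases each and the control holds 15. Both targeting LNAs pair without a mismatch with exon 2 of Gm15551 on the minus strand of build GRCm38, LNA1 at chr3:126667502-126667517 and LNA2 at chr3:126667608-126667623. In the annotated transcripts of the 10 pathway genes, the closest match to any of the 3 oligonucleotides had 4 mismatches, for LNA1 with Tgfb1, Tgfbr1, Bmp4 and Bmpr1a, and 18.7% of tested genes matched LNA1 that closely or better. The closest match of LNA2 in these genes had 5 mismatches.

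Library totals ranged from 9167560 to 19723021 counts. The 6 libraries of replicate 2 stood apart in every group, with 7.86% to 9.79% of their counts on mitochondrial genes against 2.56% to 4.97% in the other 12, and with 2.88% to 14.3% on the single gene CT010467.1 against 0.285% to 1.04%. The response to stimulation was checked with Ucp1, the uncoupling protein of brown fat, which stood at 1.12 ± 0.346 CPM (SD, n = 9), the unit being counts scaled to the effective size of the library, in unstimulated and 12.9 ± 2.25 CPM in stimulated libraries (log2 fold change 3.51, adjusted p = 1.12e-08). The knockdown was not tested, because Gm15551 had 1 to 14 counts per library and did not pass the filter. It ranged from 0.129 to 0.794 CPM with ctrlA, from 0.0794 to 1.02 CPM with LNA1 and from 0.07 to 1.07 CPM with LNA2 (n = 6 each). These ranges overlapped, and the highest libraries were unstimulated ones of LNA1 and LNA2, from replicate 2. The means were 0.493, 0.341 and 0.368 CPM in that order, lower with both targeting LNAs. Unstimulated medians were 0.577, 0.305 and 0.213 CPM (n = 3 each). Stimulated medians were 0.204, 0.0887 and 0.38 CPM, where LNA2 was above ctrlA. The study reports robust downregulation of this RNA by both targeting LNAs. Of the 12 adipocyte markers, Fabp4, Plin1, Cebpa and Adipoq were abundant, while Lep and Dio2 did not exceed 2 and 4 counts in any library. Of the 9 preadipocyte or fibroblast markers, Dpp4 had 0 counts in all libraries and Thy1 at most 2, while Col3a1 (110 to 286 CPM), Col1a1 (65.4 to 246 CPM), Pdgfrb (11 to 28.8 CPM) and Pdgfra (6.74 to 16.4 CPM) were present in every library.

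The abundance of the genes was first set out over all 18 libraries. Per kilobase of exon, the receptors were the most abundant, with a mean of 16.6 CPM per kb for Bmpr1a, a BMP type 1 receptor, 7.9 for Tgfbr1, the TGF-β type 1 receptor, and 6.23 for Tgfbr2, the type 2 receptor that binds TGF-β first. The ligand Tgfb1 stood at 3.72 CPM per kb, Smad3, the receptor Smad of TGF-β and activin, at 2.95, the inhibitor Smad7 at 1.73 and the ligand Tgfb3 at 1.54. The other ligands were scarce on the same scale, with 0.47 CPM per kb for Tgfb2, 0.262 for Bmp4 and 0.179 for Inhbb, which encodes the βB subunit of activins and inhibins. In counts, Inhbb ranged from 3 to 22 and Bmp4 from 2 to 22 per library, so that differences of these ligands rest on few fragments. The 3 counts taken as the floor of detection correspond to 0.17 to 0.306 CPM, and the lowest value of Bmp4, 0.14 CPM in unstimulated LNA2 replicate 4, lies below it.

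**Figure D1:**
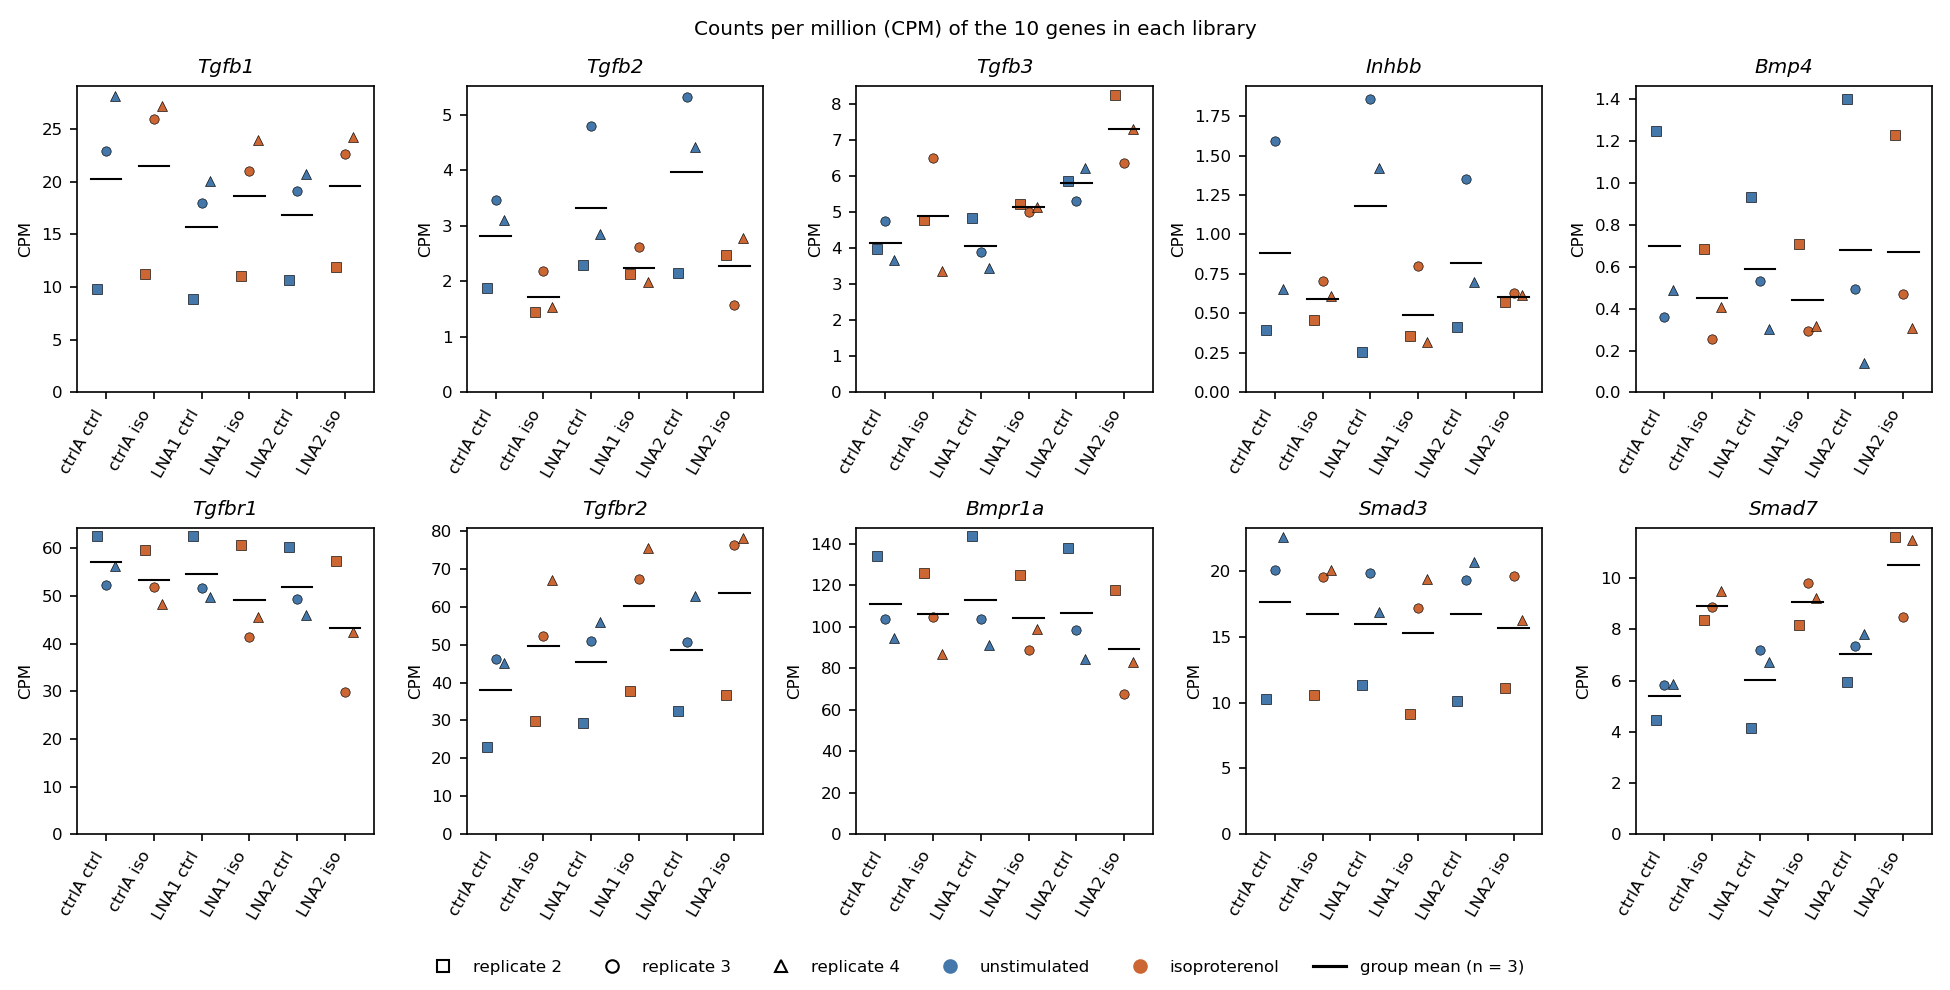
Abundance in CPM of each gene (vertical axes start at 0) in the 6 groups, with 1 point per library, its shape giving the replicate number, and a line at the mean of 3 libraries. Smad7 is the gene in which all 9 stimulated libraries (8.16 CPM and above) lie above all 9 unstimulated ones (7.84 CPM and below), and the squares of replicate 2 lie apart from the others for Tgfb1, Tgfbr1, Tgfbr2, Bmpr1a, Smad3 and Bmp4.

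The replicate number separated several of these genes more widely than any treatment did. For 6 of the 10 genes the CPM ranges of replicate 2 and of replicates 3 and 4 did not overlap, which was also the case for 34.5% of all genes tested. Tgfb1 stood at 10.6 ± 1.08 CPM (SD, n = 6) in replicate 2 and at 22.8 ± 3.18 CPM (n = 12) in the other libraries. Smad3 stood at 10.4 ± 0.782 against 19.3 ± 1.75 CPM and Tgfbr2 at 31.5 ± 5.46 against 60.7 ± 12 CPM in the same comparison. In the opposite direction, Bmpr1a stood at 131 ± 9.34 CPM in replicate 2 against 92.3 ± 11.0 CPM, Tgfbr1 at 60.6 ± 1.98 against 47.1 ± 6.92 CPM and Bmp4 at 1.04 ± 0.304 against 0.365 ± 0.117 CPM. The summed level of 9 preadipocyte or fibroblast markers, led by Col3a1 and Col1a1, ranged from 241 to 337 CPM in replicate 2 and from 362 to 547 CPM in the others. Col3a1 and Col1a1 are also among the pathway targets listed below, so that this sum is not independent of the pathway. The sum of 12 adipocyte markers ranged from 14300 to 23000 against 9100 to 15200 CPM. That of 4 smooth muscle or myofibroblast markers, of which Acta2 and Tagln are also listed targets, ranged from 16.9 to 34.8 against 8.5 to 24.1 CPM. The part of these differences in the results below was not tested, and in a bulk sample a change in the share of a cell type and a change in the RNA per cell cannot be told apart. For this reason the fit with the replicate number as a block is given wherever it changed a call. The labels do not state that equal numbers pair libraries across groups. The block and the counts of same-numbered pairs below rest on that assumption.

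To ask whether β-adrenergic stimulation changes the expression of pathway genes, the 9 stimulated libraries were compared with the 9 unstimulated ones. A call required a log2 fold change beyond 0.5 in either direction together with an adjusted p under 0.05 from edgeR's quasi-likelihood test. Of the 10 genes, 1 was called, the inhibitor Smad7, which rose. The share called among all 14949 genes tested was 3.2%. With the replicate block, Smad7 rose and Tgfb2 fell, so that 2 of 10 genes were called, against 7% of all genes. By adjusted p alone, 5 of the 10 genes passed with the block, as did 3943 of the 14949 genes tested. The median log2 fold change of the 10 genes was -0.11, beside 0.00 over all genes tested.

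Smad7 (chr18:75367529-75395935, plus strand, GRCm38) encodes the Smad that binds activated type 1 receptors and recruits ubiquitin ligases to them. In unstimulated cells it stood at 4.48, 5.84 and 5.87 CPM with ctrlA, at 4.16, 7.19 and 6.71 CPM with LNA1 and at 5.95, 7.37 and 7.84 CPM with LNA2, in the order of replicates 2, 3 and 4. With isoproterenol it stood at 8.36, 8.88 and 9.50 CPM with ctrlA, at 8.16, 9.82 and 9.22 CPM with LNA1 and at 11.6, 8.49 and 11.5 CPM with LNA2. By group mean, Smad7 was highest in stimulated LNA2, followed by stimulated LNA1 and ctrlA and then by unstimulated LNA2, LNA1 and ctrlA, and of these 5 neighbouring pairs only stimulated ctrlA and unstimulated LNA2 did not overlap. Every stimulated library was above every unstimulated one, and 1.18% of all genes tested showed such a separation of 9 from 9 libraries. The mean was 6.16 ± 1.26 CPM without and 9.50 ± 1.27 CPM with stimulation (SD, n = 9). The log2 fold change was 0.63 ± 0.12 (SE, adjusted p = 0.00553), and 0.64 with the block (adjusted p = 1e-04). Smad7 was higher in 9 of 9 same-numbered pairs. Over all genes tested, 15.3% had the same direction in every such pair. The size of the effect lay close to the limit on fold change. Without the libraries of replicate 2 it was 0.49 (adjusted p = 0.0102), below that limit, and without replicates 3 or 4 it was 0.74 (adjusted p = 0.127) or 0.67 (adjusted p = 0.198). Between unstimulated and stimulated libraries the summed adipocyte markers ranged from 12300 to 23000 and from 9100 to 17300 CPM, and the summed preadipocyte or fibroblast markers from 241 to 531 and from 320 to 547 CPM. The summed smooth muscle or myofibroblast markers ranged from 18 to 34.8 and from 8.5 to 27.4 CPM. By mean, the preadipocyte or fibroblast markers Ly6a (12.1 and 35.2 CPM), Col1a1 (132 and 165 CPM) and Col3a1 (182 and 211 CPM) were higher with stimulation. Pdgfrb (22.3 and 17.9 CPM) and Pdgfra (11.2 and 11 CPM) were lower. Most of the adipocyte sum is Fabp4, with means of 13600 and 9990 CPM. Adipoq (616 and 379 CPM), Plin1 (690 and 581 CPM) and Cebpa (589 and 542 CPM) were lower with stimulation as well. Pparg stood at 155 CPM in both. Of the brown fat genes, Elovl3 (253 and 326 CPM), Ppargc1a (52.3 and 77.6 CPM) and Cidea (7.34 and 17.7 CPM) were higher in the mean of stimulated libraries, as was Ucp1. Prdm16 (6.78 and 5.87 CPM) was lower, and Dio2 did not exceed 4 counts. Their part in the result was not tested.

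Among the ligands, the call of Tgfb2 (chr1:186622792-186705989, minus strand) depended on the model. Its unstimulated libraries stood at 1.87, 3.46 and 3.10 CPM with ctrlA, at 2.29, 4.79 and 2.85 CPM with LNA1 and at 2.15, 5.32 and 4.41 CPM with LNA2. After isoproterenol they stood at 1.44, 2.19 and 1.53 CPM with ctrlA, at 2.13, 2.62 and 1.99 CPM with LNA1 and at 2.47, 1.57 and 2.77 CPM with LNA2. The stimulated library was lower in 8 of 9 pairs, LNA2 replicate 2 being the exception, and the ranges of the 9 and 9 libraries overlapped. The mean was 3.36 ± 1.23 CPM without and 2.08 ± 0.487 CPM with stimulation. The log2 fold change of -0.68 ± 0.22 (SE) did not pass the test without a block (adjusted p = 0.0948), whereas Tgfb2 fell with the block (-0.65, adjusted p = 0.0111). Tgfb2 was also called when unstimulated LNA2 replicate 2 was left out (-0.78, adjusted p = 0.0411) and when all of replicate 2 was left out (-0.90, adjusted p = 0.0165). It was not called without replicate 3 (-0.46, adjusted p = 0.772), without replicate 4 (-0.67, adjusted p = 0.584), by DESeq2 (-0.68, adjusted p = 0.0761) or without any other single library. The gene had 15 to 75 counts per library, and its exons overlap those of Gm29491 on the opposite strand, so that the counts may hold fragments of both if strand was not used.

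The promoters of Tgfb2 and Tgfbr2 are shown because with the block Tgfb2 was called for stimulation and Tgfbr2 had the smallest adjusted p, and because β-adrenergic signals reach genes through CREB and TGF-β signals through Smads. The 250 bases before the start are given from RefSeq (GRCm38.p6), for Tgfb2 at chr1:186705990-186706239 and for Tgfbr2 at chr9:116175364-116175613, both on the minus strand. Capitals mark the CREB half-site TGACG and the Smad-binding letters CAGAC on either strand.
Tgfb2: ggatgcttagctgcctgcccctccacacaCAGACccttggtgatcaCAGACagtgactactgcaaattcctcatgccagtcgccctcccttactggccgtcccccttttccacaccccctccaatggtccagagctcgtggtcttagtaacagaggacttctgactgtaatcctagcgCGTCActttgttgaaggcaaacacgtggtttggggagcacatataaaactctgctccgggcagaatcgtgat
Tgfbr2: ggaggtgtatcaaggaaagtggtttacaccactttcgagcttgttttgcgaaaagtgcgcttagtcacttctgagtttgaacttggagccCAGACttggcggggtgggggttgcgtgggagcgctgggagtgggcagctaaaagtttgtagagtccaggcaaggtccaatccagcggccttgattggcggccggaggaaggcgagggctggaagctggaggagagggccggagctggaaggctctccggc
The Tgfb2 window held 1 TGACG, read as CGTCA on the printed strand from position -72 relative to the start, and 2 CAGAC. The Tgfbr2 window held 1 CAGAC and 0 TGACG. Of 32851 mouse promoter windows of this length, 17.8% held TGACG and 42.2% held CAGAC. The full palindromes TGACGTCA, which contains TGACG, and GTCTAGAC were searched as well. They were in 1.55% and 0.167% of all windows and in 0 of the 9 windows that matched 8 of the 10 genes. Smad7 and Tgfb3 had no window and were not searched. Of these 9 windows 1 held TGACG, that of Tgfb2, and 3 held CAGAC, those of Tgfb2 and Tgfbr2 and 1 of the 2 windows of Tgfbr1. A match of these letters is a description of the sequence only.

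The remaining ligands did not pass the test for stimulation. Tgfb1 (chr7:25687002-25705077, plus strand), the most abundant TGF-β ligand here, ranged from 8.83 to 28.1 CPM with a median of 19.1 CPM in unstimulated libraries, and from 11.0 to 27.2 CPM with a median of 22.6 CPM in stimulated ones. Replicate 2 was low in both, and the ranges overlapped with or without it, while within pairs the stimulated library was higher in 8 of 9. Its log2 fold change was 0.18 (adjusted p = 0.888), and 0.19 (adjusted p = 0.0196) with the block, below the limit on fold change in both fits. Tgfb3 (chr12:86056745-86079041, minus strand) ranged from 3.46 to 6.23 CPM without and from 3.37 to 8.26 CPM with stimulation (medians 4.76 and 5.24 CPM), with a log2 fold change of 0.30 (adjusted p = 0.24) and 8 of 9 pairs higher. Inhbb (chr1:119415465-119422248, minus strand) ranged from 0.255 to 1.86 CPM without and from 0.318 to 0.80 CPM with stimulation (medians 0.70 and 0.613 CPM). The 4 values of Inhbb above the stimulated range were unstimulated replicate 3 with each LNA and unstimulated LNA1 replicate 4. Its log2 fold change was -0.74 with a 95% interval from -1.54 to 0.07 (adjusted p = 0.402), and Inhbb was called with the block over replicates 3 and 4 alone (-1, adjusted p = 0.0354). Bmp4 (chr14:46383520-46390669, minus strand) ranged from 0.14 to 1.40 CPM and from 0.257 to 1.23 CPM, with a log2 fold change of -0.38 and an interval from -1.32 to 0.55 (adjusted p = 0.835).

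Of the 3 receptors 0 were called for stimulation by edgeR with or without the block or by DESeq2, and without the block 0 had an unadjusted p below 0.05. Tgfbr2 (chr9:116084293-116175360, minus strand) stood at 22.9, 46.3 and 45.3 CPM in unstimulated ctrlA, at 29.3, 50.9 and 56.1 CPM in unstimulated LNA1 and at 32.4, 50.7 and 62.8 CPM in unstimulated LNA2. With isoproterenol these became 29.9, 52.4 and 67.0 CPM, 37.9, 67.3 and 75.4 CPM, and 36.6, 76.3 and 78.1 CPM. The order of the group means was that of Smad7, with all neighbouring groups overlapping. The stimulated library was higher in 9 of 9 pairs, although the ranges of stimulated and unstimulated libraries overlapped, with or without the low values of replicate 2. The log2 fold change was 0.39 (adjusted p = 0.51) without the block and 0.38 (95% interval 0.28 to 0.48, adjusted p = 1.68e-05) with it, the smallest adjusted p among the 10 genes in that fit, and stayed under the limit of 0.5. Tgfbr1 (chr4:47353222-47414931, plus strand) ranged from 46.0 to 62.7 CPM (median 52.4) without and from 29.9 to 60.7 CPM (median 48.4) with stimulation. It was lower in 9 of 9 pairs, with a log2 fold change of -0.17 (adjusted p = 0.638; -0.18, adjusted p = 0.0495, with the block). Bmpr1a (chr14:34410734-34503341, minus strand) ranged from 84.3 to 144 CPM (median 104) and from 67.7 to 126 CPM (median 99.1), with a log2 fold change of -0.14 (adjusted p = 0.799) and 7 of 9 pairs lower. Exons of Bmpr1a, Bmp4 and Tgfb3 also overlap genes on the opposite strand.

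Smad3 (chr9:63646767-63757994, minus strand) ranged from 10.1 to 22.6 CPM (median 19.3) in unstimulated and from 9.14 to 20.1 CPM (median 17.2) in stimulated libraries. Its log2 fold change of -0.08 had a 95% interval from -0.55 to 0.39 (adjusted p = 0.96), which the block narrowed to -0.21 to 0.06, and 4 of 9 pairs were higher. A difference was thus not detectable, and in the blocked fit the interval lay within the limit of 0.5 on either side.

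**Figure D2:**
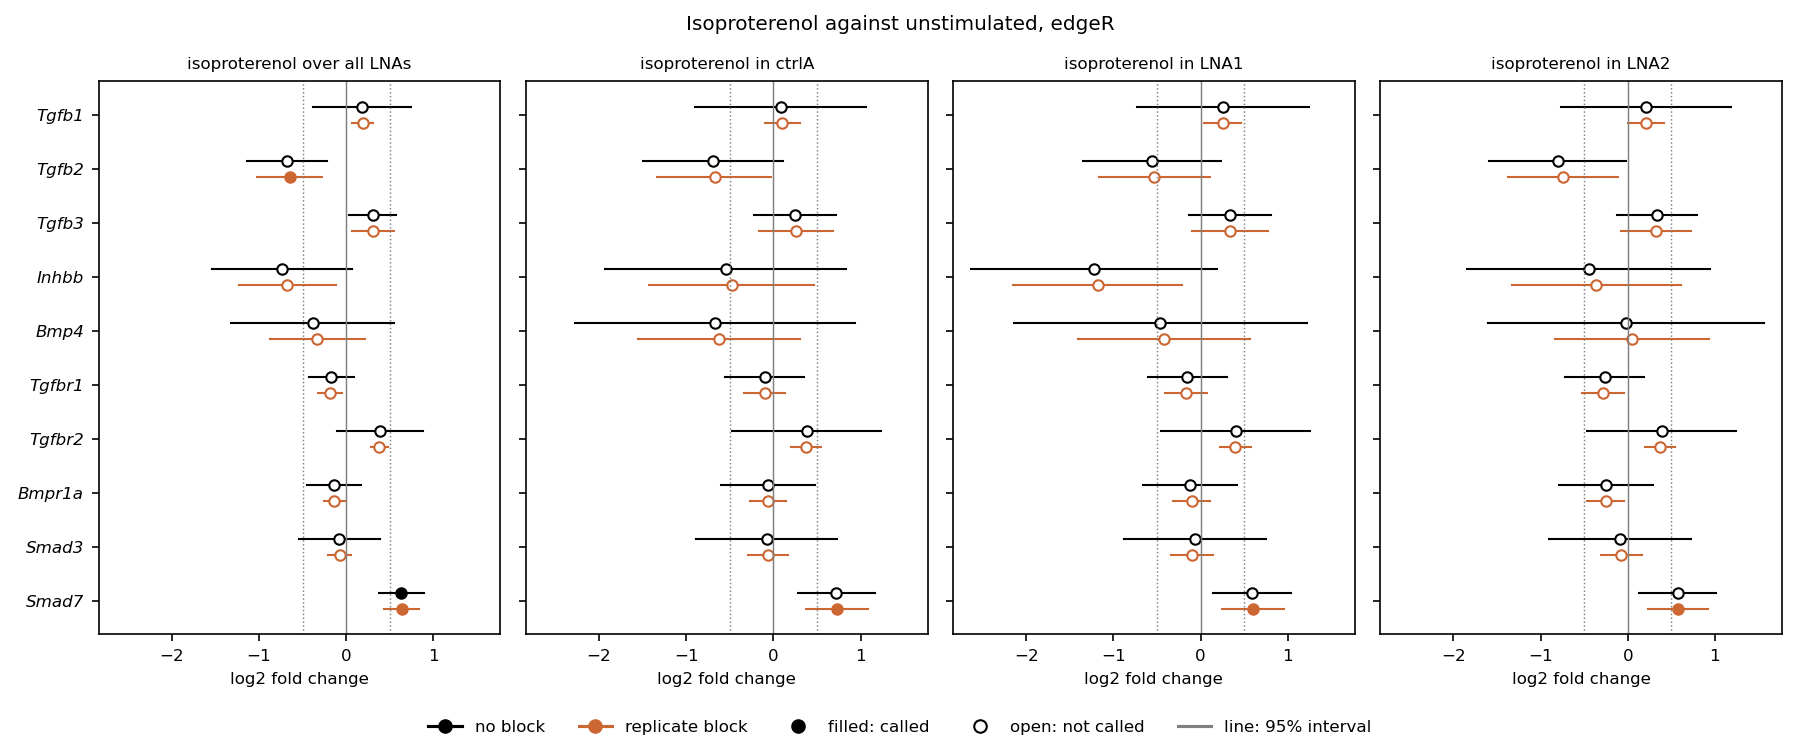
Log2 fold change of isoproterenol against unstimulated (horizontal axis) for the 10 genes, averaged over the LNAs and within each LNA, from edgeR without (black) and with (orange) the replicate block; lines are 95% intervals, filled points passed both limits and dotted lines mark 0.5 on either side of 0. Smad7 lies above 0.5 in every panel, and the block narrows the intervals.

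Within each LNA, where 3 libraries were compared with 3, 0 of 10 genes were called without the block, with 1 gene at an unadjusted p below 0.05 in ctrlA, 1 in LNA1 and 2 in LNA2 by edgeR, the same numbers by DESeq2, and 0 calls by DESeq2. The shares called over all genes were 0.488% in ctrlA, 0.702% in LNA1 and 0.395% in LNA2. With the block, Smad7 rose in each of them, by 0.73 in ctrlA (adjusted p = 0.0104), by 0.60 in LNA1 (adjusted p = 0.0313) and by 0.58 in LNA2 (adjusted p = 0.0328) on the log2 scale, as the only one of the 10 genes. The shares over all genes were then 4.03%, 5.04% and 4.25%. The interaction, which tests whether an LNA changes the response to isoproterenol, was called for 0 of 10 genes with either LNA, and for 0% of all genes tested. None of the 10 genes had an unadjusted p below 0.05 for an interaction in edgeR with or without the block or in DESeq2. For Smad7 the response differed from that in ctrlA by -0.13 (95% interval -0.76 to 0.50) with LNA1 and by -0.15 (-0.78 to 0.48) with LNA2 on the log2 scale, so that changes of the response by up to these bounds were not resolved.

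To ask whether the LNAs against Gm15551 change the pathway genes, each was compared with ctrlA over both states of stimulation (6 libraries against 6). These comparisons share the ctrlA libraries. The summed adipocyte markers ranged from 10800 to 23000 CPM with ctrlA, from 9100 to 19700 CPM with LNA1 and from 9450 to 19300 CPM with LNA2. For the summed preadipocyte or fibroblast markers the ranges were 266 to 547, 242 to 533 and 241 to 519 CPM in that order. For the summed smooth muscle or myofibroblast markers they were 10.2 to 34.8, 8.5 to 34.5 and 10.8 to 27.4 CPM. Their part in the results was not tested. LNA1 changed 0 of 10 genes by edgeR, with 0 genes at an unadjusted p below 0.05 and 0 calls by DESeq2, beside 0.442% of all genes. With the block 0 genes were called as well, beside 2.43% of all genes. LNA2 changed 0 of 10 genes without the block, with 1 gene at an unadjusted p below 0.05 and 0 calls by DESeq2, beside 1.42% of all genes. With the block 1 gene was called, the ligand Tgfb3, which rose, beside 5.53% of all genes. Between LNA2 and LNA1 the counts were 0 without the block, with 1 gene at an unadjusted p below 0.05 and 0 calls by DESeq2, and 1 with it, again Tgfb3, beside 0.923% and 4.11% of all genes.

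Tgfb3, a TGF-β ligand with roles in palate and mesenchyme development, stood at 3.97, 4.76 and 3.67 CPM in unstimulated ctrlA, at 4.84, 3.90 and 3.46 CPM in unstimulated LNA1 and at 5.86, 5.32 and 6.23 CPM in unstimulated LNA2. In stimulated cells it stood at 4.79, 6.50 and 3.37 CPM with ctrlA, at 5.24, 5.02 and 5.16 CPM with LNA1 and at 8.26, 6.37 and 7.30 CPM with LNA2. The LNA2 libraries were the higher ones in each state, except that stimulated ctrlA replicate 3 lay above stimulated LNA2 replicate 3. Over both states the mean CPM of Tgfb3 was 4.51 ± 1.13 for ctrlA, 4.60 ± 0.741 for LNA1 and 6.56 ± 1.06 for LNA2 (SD, n = 6). The log2 fold change of LNA2 against ctrlA was 0.53 ± 0.15 (SE, adjusted p = 0.124), and 0.53 with the block (adjusted p = 0.0123). Against LNA1 it was 0.51 (adjusted p = 0.198), and 0.51 with the block (adjusted p = 0.0219). Tgfb3 was higher with LNA2 in 5 of 6 same-numbered pairs against ctrlA and in 6 of 6 against LNA1, where 22% and 22.3% of all genes had the same direction in every pair. Of 26 alternatives the full block was the only one that called it in either comparison, and the block over replicates 3 and 4 did not. With libraries left out the value ranged from 0.36 to 0.79 against ctrlA and from 0.43 to 0.59 against LNA1. The value for LNA1 against ctrlA was 0.02 (adjusted p = 1). The gene had 33 to 101 counts per library.

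Tgfbr2 was higher than in ctrlA in 6 of 6 pairs with LNA1 and in 6 of 6 with LNA2. The share of all genes with a single direction in the 6 pairs was 20% for LNA1 and, as given, 22% for LNA2. The mean CPM of Tgfbr2 was 44.0 ± 15.8 for ctrlA, 52.8 ± 17.4 for LNA1 and 56.2 ± 19.5 for LNA2, and the spread within each group was mainly that between replicate 2 and the others. The log2 fold change was 0.27 (adjusted p = 1) with LNA1 and 0.36 (adjusted p = 0.82) with LNA2, and with the block 0.28 (adjusted p = 0.00858) and 0.36 (adjusted p = 0.000489). Neither reached the limit of 0.5. With the block, an adjusted p below 0.05 was reached by 1166 of the 14949 genes tested for LNA1 and by 3081 for LNA2. Tgfb1 was lower with LNA1 in 6 of 6 pairs and with LNA2 in 4 of 6. By edgeR without the block its log2 fold change was -0.285 with LNA1 (unadjusted p = 0.395) and -0.193 with LNA2 (adjusted p = 0.963). With the block it was -0.26 (adjusted p = 0.0266) and -0.16 (adjusted p = 0.0977). Tgfbr1 was lower with LNA2 in 6 of 6 pairs and with LNA1 in 5 of 6. Without the block its log2 fold change was -0.222 with LNA2 (adjusted p = 0.74) and -0.09 with LNA1 (unadjusted p = 0.558). With the block it was -0.24 (adjusted p = 0.0435) and -0.10 (adjusted p = 0.509). All these values were within the limit of 0.5.

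For the remaining genes the values of the LNAs lay closer together or were less certain. The mean CPM of Smad7 was 7.16 ± 2.02 for ctrlA, 7.54 ± 2.03 for LNA1 and 8.78 ± 2.28 for LNA2, with log2 fold changes of 0.09 (adjusted p = 1) and 0.31 (adjusted p = 0.471). For Smad3 the log2 fold changes were -0.14 and -0.09, for Bmpr1a 0.00 and -0.15, and for Tgfb2 0.31 and 0.45, for LNA1 and LNA2 in that order. The intervals of the scarce ligands were wide, from -0.91 to 1.09 for Inhbb and from -1.32 to 1.02 for Bmp4 with LNA1, and a change by the limit of 0.5 in either direction could not have been told from none.

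**Figure D3:**
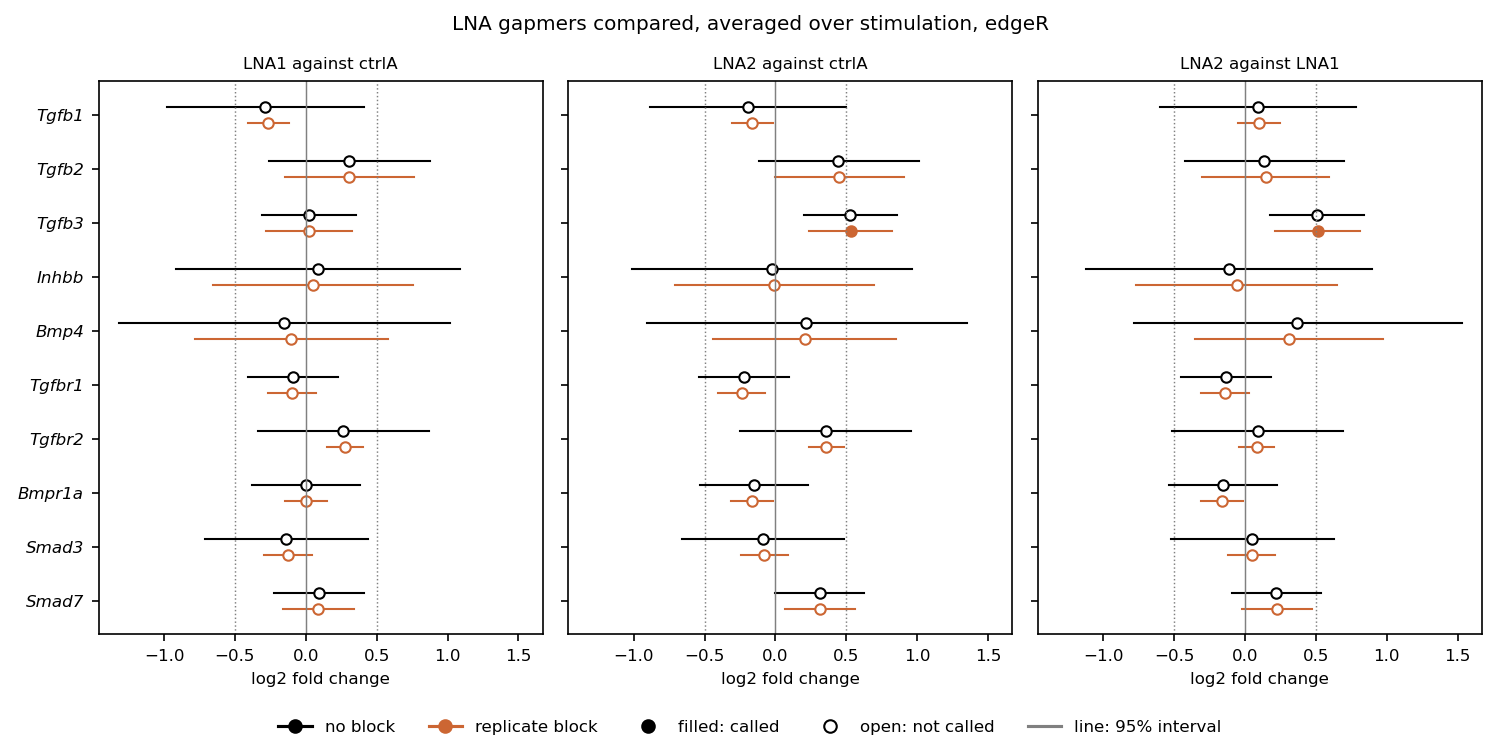
Log2 fold change (horizontal axis) of the 10 genes for each pair of LNAs, averaged over stimulation, from edgeR without (black) and with (orange) the replicate block; lines are 95% intervals, filled points passed both limits and dotted lines mark 0.5 on either side of 0. Tgfb3 is the gene with filled points, in both comparisons that involve LNA2 and with the block only, while Inhbb and Bmp4 have the widest intervals.

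The other genes of the pathway were followed with a list of 92 genes by role, of which 73 were tested. The list was chosen with earlier results of these data known. Its shares of called genes therefore cannot show a response of the pathway beyond that of all genes. With isoproterenol 5 of the 73 rose and 3 fell, where 3.2% of all genes were called. With the block 12 rose and 6 fell, where 7% of all genes were called. DESeq2 called 11 of the 73, among them 2 latency or ligand genes and 3 antagonists where edgeR without the block called 1 and 1. Over all genes, DESeq2 called 613 where edgeR without the block called 479. The median log2 fold change of the 73 genes was 0.13, beside 0.00 over all genes. Among ligands and proteins that hold them latent, 1 of 11 tested genes rose. This was Ltbp1, which anchors latent TGF-β in the matrix. It stood at 26.3 ± 5.52 CPM without and 47.0 ± 11.7 CPM with stimulation (SD, n = 9), with a log2 fold change of 0.85 (adjusted p = 0.00103). Of 11 BMP ligands 2 could be tested and Gdf5 fell, from 2.72 ± 0.671 to 1.67 ± 0.56 CPM (log2 fold change -0.71, adjusted p = 0.0264). Of 8 extracellular antagonists tested, Chrdl1, which binds BMPs, fell from 38.5 ± 10.2 to 17.2 ± 5.84 CPM (log2 fold change -1.20, adjusted p = 0.00115). Of 12 receptors and coreceptors 0 were called by edgeR and 0 by DESeq2, with 2 at an unadjusted p below 0.05 in each. Of the 6 other Smads 0 were called by either tool, with 1 at an unadjusted p below 0.05 in each. Of 12 regulators, Tgif2, a corepressor of Smads, rose from 2.60 ± 0.64 to 3.94 ± 0.529 CPM (log2 fold change 0.60, adjusted p = 0.0311).

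Of the 22 listed transcriptional targets, 3 rose and 1 fell, beside the 3.2% of all genes that were called. Tgfbi, a matrix protein named for its induction by TGF-β, stood at 10.4 to 21.1 CPM in unstimulated and at 33.4 to 44.5 CPM in stimulated libraries, which did not overlap (log2 fold change 1.52, adjusted p = 7.6e-06). Snai1, a zinc-finger repressor, rose from 8.87 ± 2.61 to 21.9 ± 4.13 CPM (1.31, adjusted p = 0.000321). Msx1, a homeobox gene, rose from 3.90 ± 0.783 to 6.07 ± 0.925 CPM (0.65, adjusted p = 0.00824). Cdkn2b, a cell cycle inhibitor that TGF-β is known to induce, fell from 19.5 ± 2.39 to 13.6 ± 1.43 CPM (-0.52, adjusted p = 0.000801). Tgfbi was called in all 26 alternative analyses, Snai1 was lost without all of replicate 3, and Ltbp1, Chrdl1 and Msx1 were lost without all of replicate 3 or 4. The calls of Tgif2, Gdf5 and Cdkn2b were less stable and were lost on leaving out any of 11, 7 and 5 single libraries, with log2 fold changes of 0.51 to 0.66, -0.82 to -0.62 and -0.57 to -0.44 over the alternatives. With the block, with which 7% of all genes were called, the further calls in the list were of genes that rose, Inhba (0.63), which encodes an activin subunit, the extracellular antagonists Fst (0.75), Fstl1 (0.62) and Grem1 (0.60) and the targets Id1 (0.52), Id2 (0.91) and Fn1 (0.67), and of genes that fell, the activin and nodal receptor Acvr1c (-0.61) and the matrix targets Col1a2 (-0.53) and Postn (-0.61).

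With LNA1, 0 of these 73 genes were called by edgeR or DESeq2, with 7 at an unadjusted p below 0.05 in each, and with LNA2, 1 rose and 1 fell. The shares called over all genes were 0.442% and 1.42%. Zfyve9, an anchor of receptor Smads that was picked out after its values were seen, passed the limit on adjusted p but not that on fold change with both LNAs. It stood at 21.8 ± 1.25 CPM for ctrlA, 29.8 ± 2.1 CPM for LNA1 and 30.5 ± 1.76 CPM for LNA2 (SD, n = 6), with log2 fold changes of 0.45 (adjusted p = 0.0194) and 0.48 (adjusted p = 0.0062). Smurf2, an E3 ubiquitin ligase that Smad7 recruits to TGF-β receptors, stood at 112 to 118 CPM in unstimulated ctrlA, 121 to 126 CPM in unstimulated LNA1 and 59.2 to 82.8 CPM in unstimulated LNA2, and at 107 to 119, 111 to 126 and 48.0 to 74.5 CPM in the stimulated groups in that order. All 6 LNA2 libraries lay below the other 12. The log2 fold change of Smurf2 was -0.80 against ctrlA (adjusted p = 0.00129) and -0.89 against LNA1 (adjusted p = 0.00112). It lost the call without all of replicate 3 or 4, settings in which 0 genes were called over all genes, and its value over the alternatives ranged from -0.94 to -0.71 against ctrlA. The closest match of its transcripts to LNA2 had 6 mismatches. Ccn2, a matricellular target of TGF-β, rose with LNA2 from the 4.12 ± 1.13 CPM of ctrlA to 10.4 ± 3.85 CPM (SD, n = 6, log2 fold change 1.35, adjusted p = 0.0158), and stood at 4.02 ± 1.40 CPM with LNA1. The call of Ccn2 was lost without stimulated ctrlA replicate 4, without unstimulated LNA2 replicate 4 and without all of replicate 3 or 4, its log2 fold change ranging from 1.16 to 1.5 over all 26 alternatives. Against LNA1, Gdf15, a distant member of the TGF-β family, rose with LNA2 as well, from 55.3 ± 7.28 to 92.7 ± 20.4 CPM (0.74, adjusted p = 0.0399), a call held in 12 of 26 alternatives and lost on leaving out any of 12 single libraries. With the block, 1 of the 73 genes rose and 7 fell for LNA2 against ctrlA, where 5.53% of all genes were called. Beside Ccn2 and Smurf2, the genes that fell were Ltbp1 (-0.51, adjusted p = 0.0033), Gdf5 (-0.69, adjusted p = 0.0223), the antagonists Fst (-0.67, adjusted p = 0.00139) and Chrdl1 (-0.55, adjusted p = 0.000327) and the matrix genes Col3a1 (-0.62, adjusted p = 7.51e-06) and Postn (-0.79, adjusted p = 7.68e-05). For LNA1 against ctrlA, where 2.43% of all genes were called with the block, Postn fell (-0.52, adjusted p = 0.00528). For LNA2 against LNA1, where 4.11% were called, Gdf15 and Ccn2 rose, and Smurf2 and Fst (-0.87, adjusted p = 0.000303) fell.

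**Figure D4:**
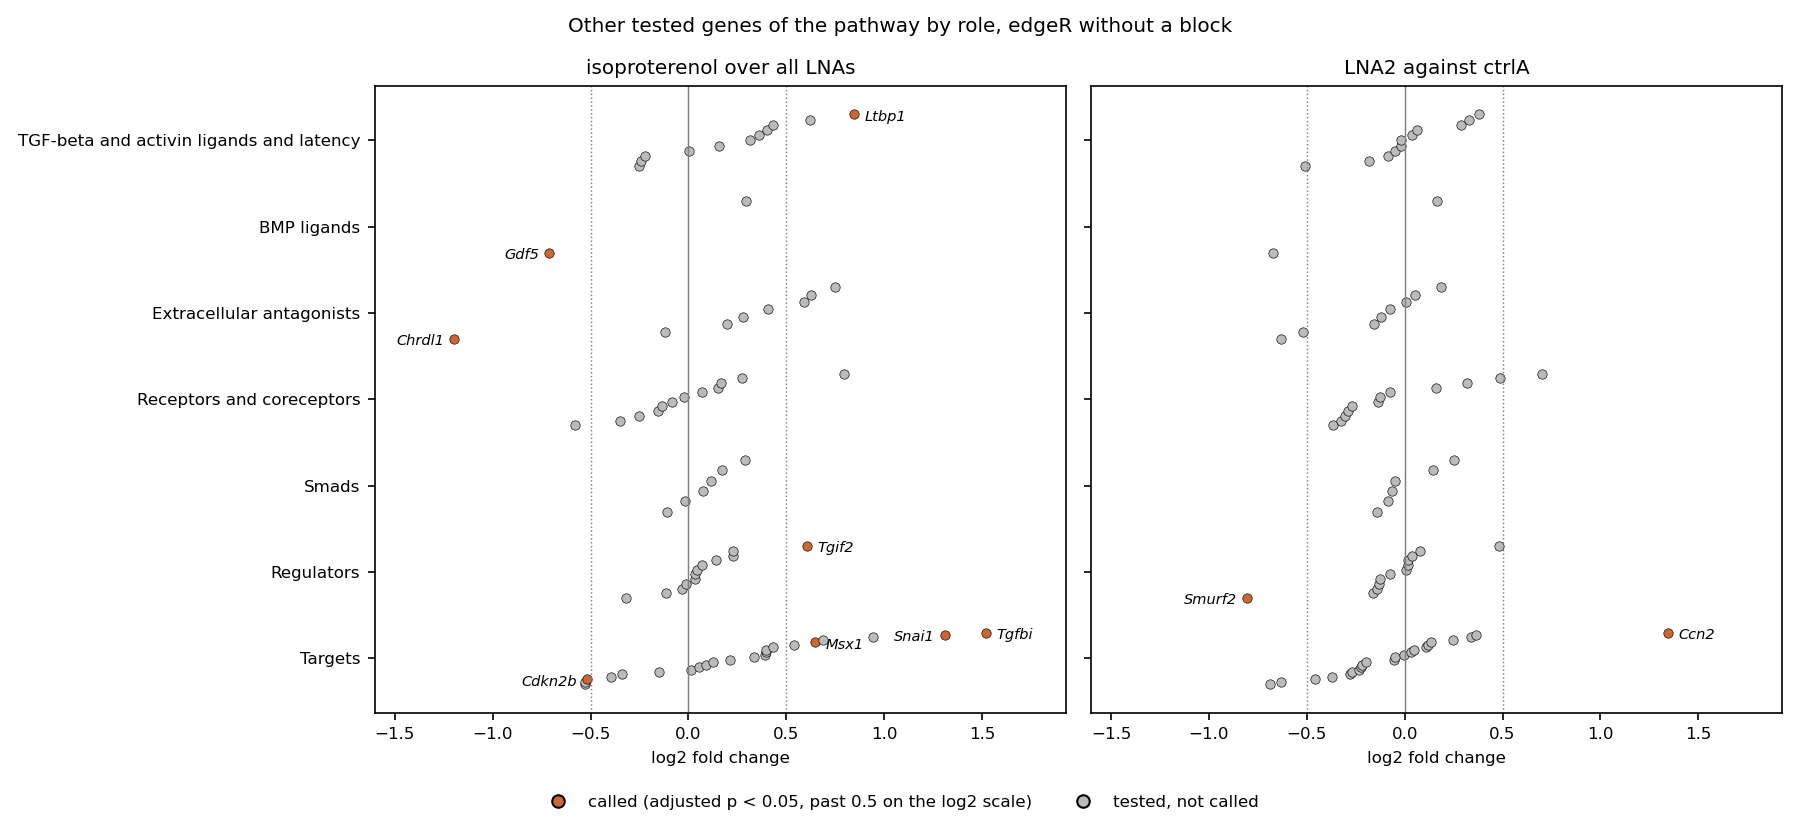
Log2 fold change (horizontal axis) of the 73 other tested pathway genes by role, for isoproterenol and for LNA2 against ctrlA, from edgeR without a block; orange points were called and are named, and dotted lines mark 0.5 on either side of 0. Called genes lie on both sides of 0 for stimulation, 5 up and 3 down, and Ccn2 and Smurf2 are the called genes for LNA2.

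**Figure D5:**
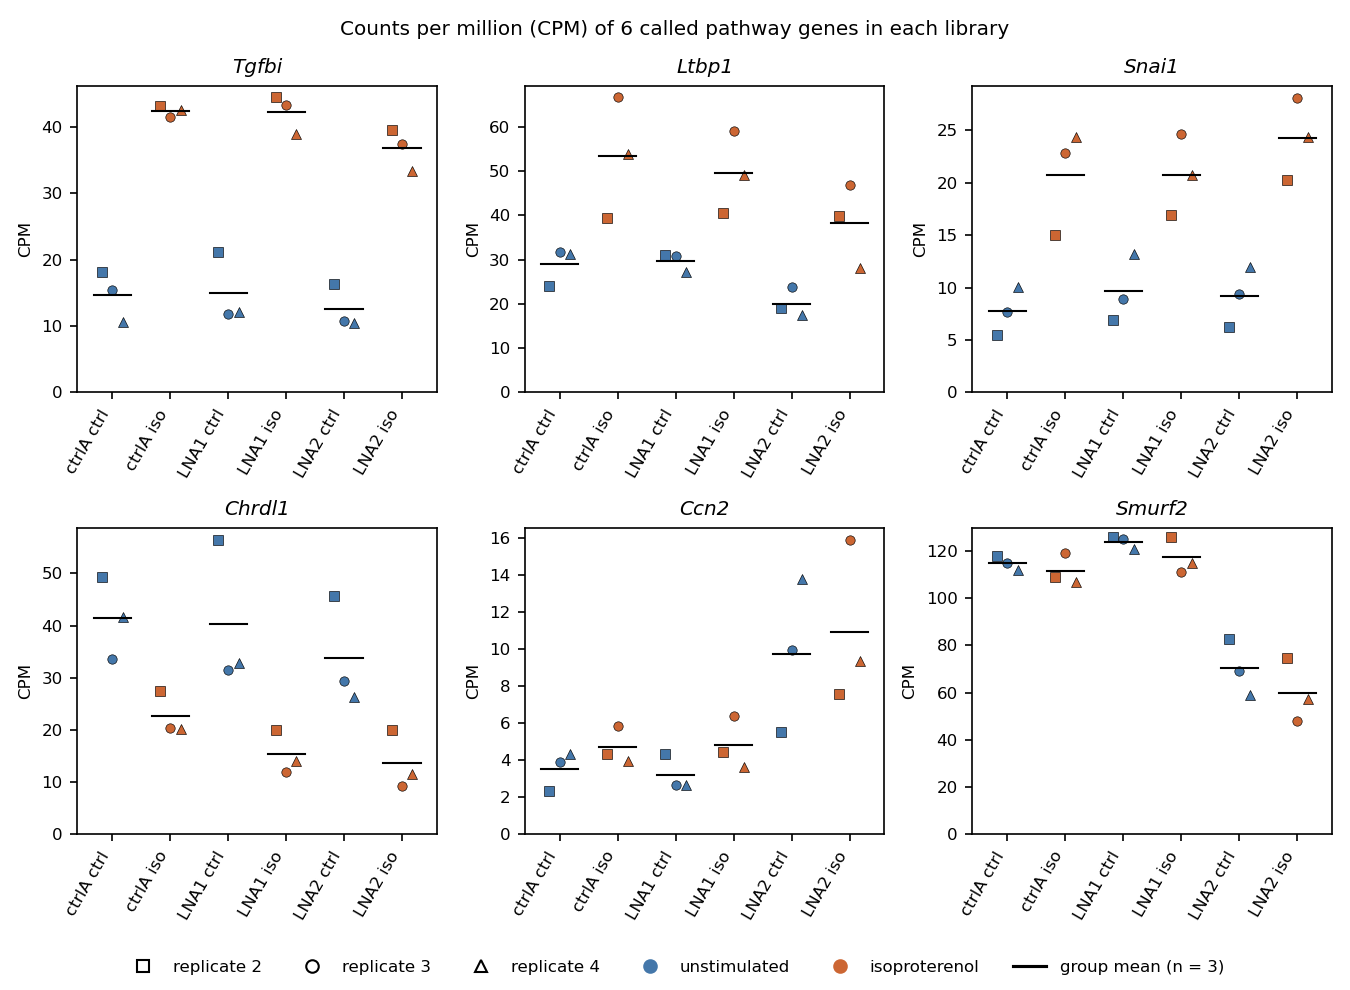
Abundance in CPM (vertical axes start at 0) of 6 of the called pathway genes in each library, with replicate numbers as shapes and a line at the mean of 3 libraries. Tgfbi, Ltbp1 and Snai1 are higher and Chrdl1 lower in the stimulated groups, and for Smurf2 the 6 libraries of LNA2 (82.8 CPM and below) lie under all others.

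Finally, the tested genes most alike in pattern were listed for each of the 10, by Pearson's r of log2 CPM over the 18 libraries after the mean of each replicate number was removed. These are descriptions, since the points share libraries and the treatments. Tgfbr2 was closest to Stat3 (r = 0.955), Abcg1 (0.954) and Cd68 (0.947), and Smad7 to Gm6093 (0.95), Junb (0.92) and Tmem119 (0.916). Tgfbr1 was closest to Sh3bgrl, Slc30a5 and Krcc1 (0.966 to 0.972) and Bmpr1a to Zyg11b, Kat2b and Cggbp1 (0.956 to 0.966). Tgfb1 was closest to Slc37a2, Pcbp2 and Ptprk (0.867 to 0.927), Tgfb2 to Esr1, Vgll3 and Hnrnpa2b1 (0.855 to 0.885) and Tgfb3 to Kif3c, Ccdc86 and Slc6a6 (0.864 to 0.887). Smad3 was closest to Atp5g2, Arhgef2 and Gm12182 (0.799 to 0.868), Inhbb to Slc35g2, Gm22000 and Gm48832 (0.761 to 0.856) and Bmp4 to Gm16576, Necab3 and Chadl (0.719 to 0.798). Among the 10 genes themselves, the r of Tgfbr1 with Bmpr1a was 0.889 and that of Tgfbr2 with Smad7 was 0.75, while Tgfbr1 and Tgfbr2 ran in opposite directions (-0.775). Cd68, the gene alike to Tgfbr2, is listed as a macrophage marker, and the summed level of the 6 macrophage markers ranged from 8.28 to 28.8 CPM in unstimulated and from 12.4 to 44.6 CPM in stimulated libraries, most of it from Cd68 (7.83 to 42.4 CPM). Csf1r reached 33 counts, and Adgre1, Ptprc, Lyz2 and Itgam did not exceed 2, 3, 4 and 5 counts in any library. By LNA, the summed macrophage markers ranged from 8.28 to 24.8 CPM with ctrlA, from 11.9 to 30.3 CPM with LNA1 and from 14.1 to 44.6 CPM with LNA2. Their part in the values of Tgfbr2 was not tested.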

How the data were processed

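The authors quality-filtered reads with cutadapt, quantified them with Salmon on Gencode M22 transcripts (GRCm38) and deposited expected counts per gene as whole numbers, without filtering or scaling. Use of strand and program versions are not given in the sources used here. The authors' own tests were done with DESeq2. Here, counts of 18 libraries (9167560 to 19723021 each) were analysed in edgeR 4.0.16 (R 4.3.3) with filterByExpr (minimum count 10, total 15), TMM and a quasi-likelihood model with a term per group. This tested 14949 genes, with Benjamini-Hochberg adjustment over all of them and two-sided tests. CPM are TMM-scaled, log2 CPM used a prior count of 2, and lengths per kb and coordinates are from GENCODE M21. All 45 pairs of libraries with the same replicate number in different groups deviated together from their group means (r from 0.24 to 0.722), and the numbers were taken to pair the samples. Replicate 2 stood apart in every group, which can give such correlations by itself. The check therefore cannot show that numbers 3 and 4 pair libraries, and the pairing is an assumption. The 18 pairs of libraries within groups all differed beyond sampling noise by a chi-square test. Alternatives were the replicate block, DESeq2 1.42.0, RLE factors, no filter, leaving out each library, and leaving out each replicate number. The block over replicates 3 and 4 alone was added after seeing the data. Floors cover counting error only. The 10 genes, the gene lists and the marker lists were chosen with earlier results of these data known. Named by rule are the 10 genes, every listed pathway gene called in stimulation or between LNAs (with or without the block), Ucp1, Gm15551 and the 3 genes most alike to each. Markers, CT010467.1 and overlapping genes are named as checks, and Zfyve9 was chosen after its values were seen.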

Additional observations from a re-analysis of the deposited data

How the results depend on the processing

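The log2 fold changes of the 10 genes in 4 comparisons gave 40 results and 1028 comparisons with an alternative, of which 961 kept direction and call, 56 reversed, 7 gained a call and 4 lost one. The genes called for isoproterenol numbered 2 with the replicate block (Smad7 and Tgfb2), 2 with the block over replicates 3 and 4 (Tgfb2 and Inhbb, with Smad7 at 0.49), and 0 to 2 when libraries were left out. Without replicate 2 the 1 gene called was Tgfb2 instead of Smad7. With the block, 1 gene was called for LNA2 against ctrlA, 1 for LNA2 against LNA1 and 3 within the LNAs (Smad7 in each). The block changed no other call of the 10 genes. Reversals occurred in 15 results, none of them called. For LNA1 against ctrlA, Tgfb3 was -0.02 without a filter and -0.06 with the block over replicates 3 and 4, and Bmpr1a was 0 with the block, -0.01 with DESeq2, 0 with RLE and -0.03 without a filter. With libraries left out, values for LNA1 ranged from -0.08 to 0.23 (Tgfb3), -0.26 to 0.01 (Smad3), -0.19 to 0.46 (Inhbb), -0.40 to 0.22 (Bmp4) and -0.10 to 0.09 (Bmpr1a). For LNA2 they ranged from -0.21 to 0.06 (Smad3), -0.30 to 0.35 (Inhbb) and -0.29 to 0.59 (Bmp4). For LNA2 against LNA1 they ranged from -0.04 to 0.23 (Tgfb1), -0.08 to 0.35 (Tgfb2), -0.03 to 0.23 (Tgfbr2), -0.08 to 0.20 (Smad3), -0.38 to 0.17 (Inhbb) and -0.13 to 0.62 (Bmp4), and for isoproterenol from -0.17 to 0.01 (Smad3). The cause was not tested. Bmp4 and Inhbb did not pass the filter in every subset of libraries. Over all genes, calls for isoproterenol numbered 1046 with the block, 613 with DESeq2, 726 without replicate 2, 92 without replicate 3 and 113 without replicate 4, beside 479. For LNA1 they numbered 364 with the block and 128 with DESeq2 beside 66, for LNA2 826 and 322 beside 213, and for LNA2 against LNA1 615 and 227 beside 138. Among the 73 other pathway genes, 18 were called for isoproterenol with the block and 11 with DESeq2 beside 8. Depth limits Bmp4 and Inhbb, which reach 22 counts at most.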
